A study of Mus musculus with 12 samples.

Results

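The genes described here are Angptl4 and 9 genes of fatty acid sensing, oxidation and storage: Ppara, Ppard, Cpt1a, Acadl, Acaa2, Hadha, Pdk4, Plin2 and Fabp7. They were matched by symbol to Ensembl gene identifiers, and all 10 had a row in both deposited count tables, which share 25442 genes. Angptl4 was chosen on its opposite response to the A2A vector in the 2 cell fractions, so its values are a description without a test. The other 9 genes were listed for their known role as targets of peroxisome proliferator-activated receptors (PPARs) or as parts of fatty acid oxidation.

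Male C57Bl6/J mice received bilateral hippocampal injections of an AAV2/9 vector at 2 months of age, and hippocampi were taken 2 months later, at 4 months of age. In both vectors the GfaABC1D promoter, which is active in astrocytes, drove the insert, either the adenosine A2A receptor (AAV-A2A) or green fluorescent protein (AAV-GFP). Dissociated cells were captured with anti-ACSA-2 microbeads, which bind an astrocyte surface antigen, and CD11b-positive cells, chiefly microglia, were then captured from the cells that had not bound. Each fraction and vector had 3 libraries, 12 in all. The vector drives expression in astrocytes, and astrocytes or their RNA may remain in the CD11b libraries. Nothing in the labels ties a CD11b library to the animal of an ACSA-2 library, and p-values measure the spread between these libraries.

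The libraries held between 33937067 and 53206974 counted reads. Counts on Adora2a, the A2A receptor gene, lay between 23.0 and 25.2 CPM (counts scaled to a library of 1000000) in AAV-GFP ACSA-2 libraries and between 654 and 943 CPM in AAV-A2A ACSA-2 libraries. In CD11b libraries they were lower but also higher with A2A, at 3.88, 4.73 and 7.97 CPM in libraries GFP-2328, GFP-2329 and GFP-2331 against 17.8, 43.6 and 16.7 CPM in libraries A2A-2343, A2A-2344 and A2A-2347. The groups did not overlap, and the part of RNA from transduced cells in the CD11b results was not tested. The 12 astrocyte markers summed to at least 37000 CPM in every ACSA-2 library, and the 12 microglial markers to at least 11894 CPM in every CD11b library. The CD11b libraries did not form 1 kind, however. The summed level of 9 choroid plexus markers was 110080 and 87711 CPM in libraries GFP-2328 and GFP-2329 and 64532 CPM in library A2A-2347, but 144 CPM in library GFP-2331 and 117 and 27.1 CPM in libraries A2A-2343 and A2A-2344. Ttr, the transthyretin gene and the most abundant of these markers, ran from 28208 to 70935 CPM in the first 3 of these libraries and from 5.08 to 76.3 CPM in the other 3. Microglial markers summed to 11894, 24542 and 31218 CPM in libraries GFP-2328, GFP-2329 and A2A-2347. They summed to 82951, 85679 and 62545 CPM in libraries GFP-2331, A2A-2343 and A2A-2344. Those 3 libraries of each kind are called choroid plexus-rich and choroid plexus-poor below, and results in the CD11b fraction are given by library or within each kind. Within each kind 1 vector has a single library, which is assumed to vary like the others in fits of that kind. In bulk RNA, fewer cells of a type and less RNA per cell cannot be told apart.

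Fatty acids bind PPAR-alpha and PPAR-delta, nuclear receptors encoded by Ppara and Ppard that sit on DNA together with retinoid X receptors. Their classical binding site is a direct repeat of the hexamer AGGTCA, and many of their targets carry fatty acids into mitochondria or oxidise them there. Angptl4 encodes a secreted angiopoietin-like protein that inhibits lipoprotein lipase. It is a PPAR target in many tissues and also responds to fasting, glucocorticoids and low oxygen. In the brain, astrocytes hold most of the capacity for fatty acid oxidation, and microglia take up and store lipid when they clear debris.

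RefSeq start-site windows on GRCm38.p6 were searched for 8 of the 10 genes. Angptl4 and Acaa2 were not among them, so nothing is said of their windows. In the 250 bases before the start, both strands were searched for the full repeat AGGTCANAGGTCA, for the single hexamer AGGTCA, for the cAMP response element TGACGTCA and for the GC box GGGCGG. The full repeat and the cAMP element were in none of these 8 windows. They occurred in 0.0335% and 1.55% of all 32851 windows of the same length. A single AGGTCA was in 3 of the 8, namely Fabp7, Cpt1a and Plin2, against 14.0% of all windows, and the GC box was in 5 of the 8, against 32.7% of all windows. The 3 windows that hold the hexamer are shown because it is the unit of the site through which PPARs bind, with capitals marking AGGTCA or its reverse complement and, in Cpt1a, also the GC boxes. Only the bases outside every annotated exon are printed, 5′ to 3′ on the strand of the gene: chr10:57784673-57784880 (plus) for Fabp7, chr19:3323051-3323284 (plus) for Cpt1a and chr4:86670061-86670309 (minus) for Plin2.
Fabp7: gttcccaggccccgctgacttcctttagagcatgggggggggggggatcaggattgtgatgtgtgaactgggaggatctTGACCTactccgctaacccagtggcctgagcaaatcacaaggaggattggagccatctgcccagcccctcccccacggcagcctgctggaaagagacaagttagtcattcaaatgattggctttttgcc
Cpt1a: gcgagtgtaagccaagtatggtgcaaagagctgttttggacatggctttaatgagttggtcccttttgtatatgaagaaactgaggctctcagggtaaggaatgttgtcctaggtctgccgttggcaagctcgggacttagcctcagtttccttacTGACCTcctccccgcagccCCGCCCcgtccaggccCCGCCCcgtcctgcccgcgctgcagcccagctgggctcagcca
Plin2: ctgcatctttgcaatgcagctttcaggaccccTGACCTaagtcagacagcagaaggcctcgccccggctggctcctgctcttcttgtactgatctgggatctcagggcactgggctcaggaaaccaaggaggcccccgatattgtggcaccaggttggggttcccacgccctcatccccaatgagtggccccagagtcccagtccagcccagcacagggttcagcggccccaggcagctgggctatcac
The hexamer began 171 bases before the RefSeq start of Fabp7, 94 before that of Cpt1a and 218 before that of Plin2. For Cpt1a this start lies downstream of the first annotated base of the gene (chr19:3322334), so its window falls inside the annotated gene. A match to these letters is a description and does not show that a receptor binds there.

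Angptl4 (ENSMUSG00000002289, chr17:33773750-33781830, minus strand, GRCm38) was higher with AAV-A2A in ACSA-2 libraries and lower with AAV-A2A in CD11b libraries. In ACSA-2 libraries its level was 88.3, 51.2 and 52.7 CPM in AAV-GFP libraries 303, 306 and 307. It was 101.9, 104 and 134 CPM in AAV-A2A libraries 309, 310 and 313. Every A2A library stood above every GFP library, the nearest pair being GFP library 303 and A2A library 309. The group means were 64.1 ± 21.0 and 113 ± 17.7 CPM (SD, n = 3 each), and the edgeR log2 fold change was 0.83 (SE 0.25), or 1.77-fold. The 12 astrocyte markers overlapped between these groups, at 37000 to 41607 CPM with GFP and 38242 to 58631 CPM with A2A. The summed 6 markers of oligodendrocyte precursors did not, at 193 to 307 CPM with GFP and 60.9 to 91.7 CPM with A2A. Most of that sum was Cspg4, at 186, 289 and 291 CPM with GFP and 70.2, 53.0 and 45.6 CPM with A2A. Of the 4 precursor markers tested, 2 were lower and 2 higher with A2A, with a median log2 fold change of 0.01. Among them 1 stood lower without overlap and 1 was called by edgeR. Of 9 mural markers 8 were lower and 1 higher with A2A (median -0.49), 2 of them lower without overlap. Of 10 endothelial markers 7 were lower and 3 higher (median -0.65), 3 of them lower without overlap. In each of these lists 1 marker was called by edgeR, and the mural and endothelial sums overlapped between the vectors. The part of these cells was not tested.

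In CD11b libraries Angptl4 was 10.2, 16.9 and 8.45 CPM in libraries GFP-2328, GFP-2329 and GFP-2331. It was 2.38, 2.88 and 2.37 CPM in libraries A2A-2343, A2A-2344 and A2A-2347. The groups did not overlap here either, and the 3 A2A libraries lay close together whatever their choroid plexus markers. The means were 11.8 ± 4.44 and 2.54 ± 0.29 CPM (SD, n = 3 each), and the log2 fold change was -2.26 (SE 0.45), 4.78-fold lower with A2A. Among the choroid plexus-rich libraries, 10.2 and 16.9 CPM with GFP stood against 2.37 CPM with A2A, and among the poor ones 8.45 CPM with GFP stood against 2.38 and 2.88 CPM with A2A. The difference was thus present on both sides of that split, with 1 library standing alone in a group on each side. In a fit of all 12 libraries the A2A effect on Angptl4 differed between the fractions by 3.01 on the log2 scale, as ACSA-2 less CD11b (SE 0.45). This is the difference for which the gene was chosen. In AAV-GFP mice the gene was 5.53-fold higher in ACSA-2 than in CD11b libraries (log2 2.47, SE 0.38).

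Astrocyte RNA was also present in the CD11b fraction. There the 12 astrocyte markers summed to between 712 and 5028 CPM with GFP and between 478 and 3397 CPM with A2A, and 4469, 3210 and 2956 CPM of the 3 highest sums came from Clu, which was likewise high in the choroid plexus-rich libraries. Without Clu the other astrocyte markers summed to 559, 512 and 330 CPM with GFP and to 288, 523 and 441 CPM with A2A, so these groups overlapped. Per 1000 CPM of astrocyte markers without Clu, Angptl4 was at 18.2, 32.9 and 25.6 in the GFP CD11b libraries and at 8.25, 5.51 and 5.37 in the A2A ones. These ratios did not overlap between vectors. With Clu included they did: per 1000 CPM of all 12 markers, Angptl4 was at 2.02, 4.53 and 11.9 with GFP and at 4.98 in library A2A-2343. The ratio without Clu in ACSA-2 libraries was 2.98, 1.84 and 2.11 with GFP and 4.08, 3.78 and 3.33 with A2A, without overlap and in the opposite direction. Of other cells, the 7 erythrocyte markers summed to between 979 and 6072 CPM with GFP and between 64.0 and 244 CPM with A2A in CD11b libraries, and 5 of the 7 did not overlap. The leading erythrocyte marker Hbb-bs, a beta-globin gene, was at 518 CPM or more in the GFP libraries and at 108 CPM or less in the A2A libraries. The 12 neuronal markers, led by Camk2a, summed to between 35.2 and 224 CPM with GFP and between 14.0 and 26.8 CPM with A2A. All 8 ependymal markers had a lower level with A2A, 3 of them without overlap. Of the 10 endothelial markers 7 were lower, 4 of them without overlap, and 3 were higher. The summed ependymal and endothelial markers overlapped between the vectors. None of these markers passed the edgeR test in the CD11b comparison, and their part in the Angptl4 difference was not tested.

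**Figure D1:**
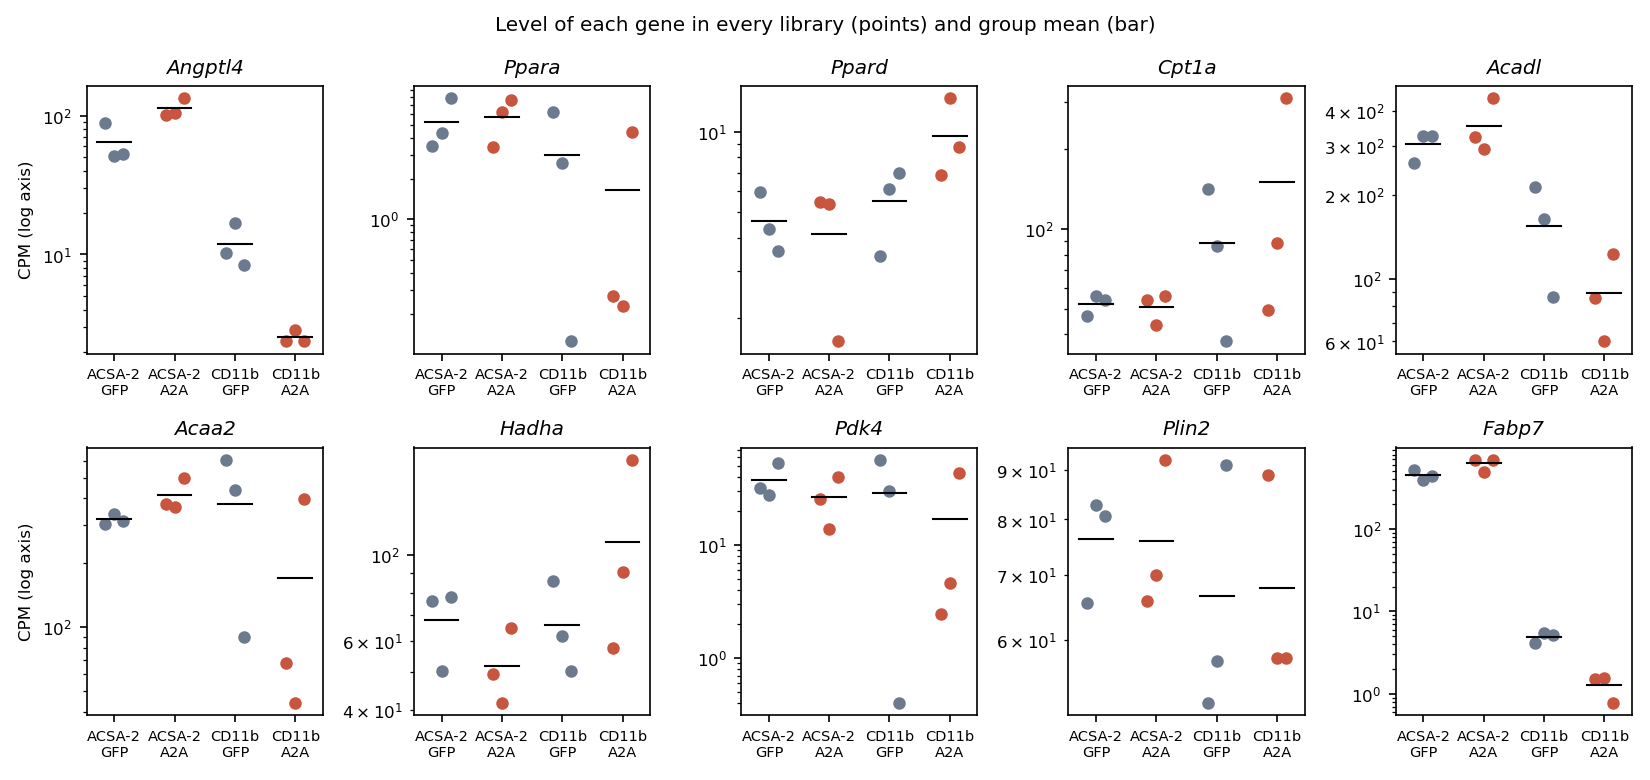
Each panel plots 1 gene, with CPM on a log axis, points for the 3 libraries of each fraction and vector and a bar for the group mean. In the Angptl4 panel the A2A points lie above the GFP points in ACSA-2 libraries (101.9 to 134 against 51.2 to 88.3 CPM) and below them in CD11b libraries (2.37 to 2.88 against 8.45 to 16.9 CPM).

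Fabp7 (ENSMUSG00000019874, chr10:57784881-57788450, plus strand) encodes the brain fatty acid-binding protein, which carries fatty acids inside astrocytes and radial glia. It was the only one of the 9 tested genes whose level differed between the fractions of AAV-GFP mice by the rule used throughout, an adjusted p under 0.05 over all tested genes with an absolute log2 fold change over 0.32. Its level was 523, 398 and 437 CPM in GFP libraries 303, 306 and 307 of the ACSA-2 fraction. In the GFP CD11b libraries GFP-2328, GFP-2329 and GFP-2331 it was 4.13, 5.47 and 5.21 CPM. The fractions were far apart, 92.9-fold (log2 6.54, SE 0.32, edgeR adjusted p = 0.000237). By the same rule 25.8% of the 16980 genes tested between the fractions were called, so 1 of 9 is no excess over the background.

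With A2A, Fabp7 in ACSA-2 libraries was 689, 496 and 694 CPM, which overlapped the GFP libraries (log2 fold change 0.47, SE 0.19, edgeR adjusted p = 0.330). In CD11b libraries it was 1.503, 1.57 and 0.777 CPM with A2A, and every A2A library lay below every GFP library. The log2 fold change there was -1.98 (SE 0.53), and the edgeR adjusted p over all 16949 genes was 0.280. DESeq2 on the same counts gave a log2 fold change of -1.98 with an adjusted p of 0.0198, so the call depended on the tool. The direction was the same in choroid plexus-rich libraries, at 4.13 and 5.47 CPM with GFP against 0.777 CPM with A2A, and in poor ones, at 5.21 CPM with GFP against 1.503 and 1.57 CPM with A2A. Per 1000 CPM of astrocyte markers without Clu, Fabp7 was at 7.39, 10.7 and 15.8 with GFP and at 5.22, 2.999 and 1.76 with A2A. With Clu included in the marker sum, these ratios overlapped between the vectors. The A2A effect on Fabp7 differed between the fractions by 2.38 on the log2 scale (SE 0.47), narrowly short of the threshold in edgeR (adjusted p = 0.0531). That difference was called by DESeq2 (adjusted p = 0.000119), with a minimum of 10 counts in every library (adjusted p = 0.0324), without library GFP-2331 (adjusted p = 0.0245) and without library A2A-2343 (adjusted p = 0.0236), and the adjusted p ran from 0.000119 to 0.180 over all alternatives.

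The A2A vector moved none of the 9 tested genes past the rule in either fraction. Across all genes 3.36% of 16451 were called in ACSA-2 libraries and 0% of 16949 in CD11b libraries. The count of 0 in CD11b libraries came from edgeR, where 2704 genes had an unadjusted p under 0.05. On the same table limma-voom called 0 genes and DESeq2 502. The difference of the A2A effect between the fractions was called for 0.403% of 18602 genes by edgeR and for none of the 9. Without overlap between the vectors stood 1 of the 9 genes in ACSA-2 libraries (Acaa2, higher with A2A) against 19.6% of all genes, and 1 of the 9 in CD11b libraries (Fabp7, lower with A2A) against 23.4% of all genes. Both shares were below the background.

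**Figure D2:**
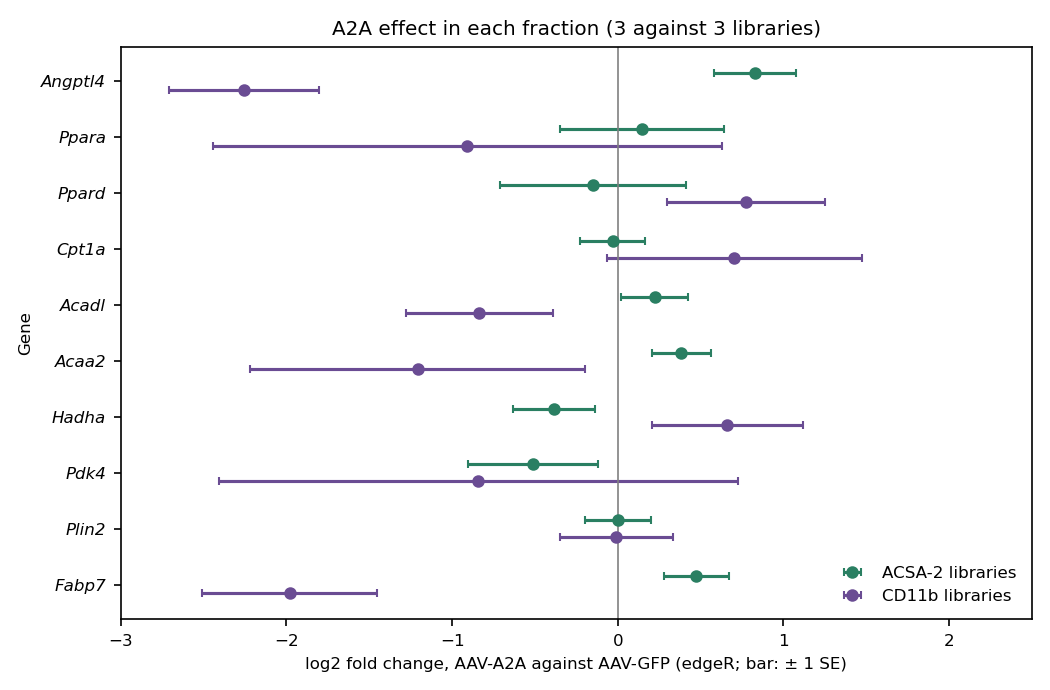
Points give the edgeR log2 fold change of AAV-A2A against AAV-GFP for each gene in ACSA-2 and in CD11b libraries (3 against 3), and bars give 1 SE. Angptl4 and Fabp7 lie right of 0 in ACSA-2 libraries (0.83 and 0.47) and left of 0 in CD11b libraries (-2.26 and -1.98), while the SE of Ppara and Pdk4 in CD11b libraries exceeds 1.5 log2 units.

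The receptors were expressed at a low level. Ppara (ENSMUSG00000022383, chr15:85734983-85802819, plus strand), the receptor that drives fatty acid oxidation in fasting, was at 3.45, 4.31 and 7.85 CPM with GFP in ACSA-2 libraries. With A2A it was at 3.40, 6.16 and 7.64 CPM. These groups overlapped almost fully (log2 fold change 0.15, SE 0.50, edgeR adjusted p = 0.959). In CD11b libraries Ppara followed the choroid plexus markers: 6.18, 2.597 and 4.43 CPM in the rich libraries GFP-2328, GFP-2329 and A2A-2347 and 0.125, 0.273 and 0.228 CPM in the poor libraries GFP-2331, A2A-2343 and A2A-2344. The low values rest on 5, 10 and 8 reads, and the 95% exact Poisson interval of the lowest runs from 0.0407 to 0.293 CPM, which covers counting error only. The A2A contrast over these 6 libraries had a log2 fold change of -0.91 (SE 1.54, edgeR adjusted p = 0.794), and its sign changed to 0.96 in the poor libraries alone.

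Ppard (ENSMUSG00000002250, chr17:28232700-28301474, plus strand), the more broadly expressed receptor, was at 5.93, 4.31 and 3.57 CPM with GFP and at 5.44, 5.33 and 1.63 CPM with A2A in ACSA-2 libraries. Its CD11b levels were 3.42, 6.10 and 6.99 CPM with GFP and 6.86, 13.3 and 8.77 CPM with A2A. The highest GFP library stood just above the lowest A2A library there, and the log2 fold change was 0.77 (SE 0.48, edgeR adjusted p = 0.451). Unlike Ppara, Ppard did not separate choroid plexus-rich from poor libraries.

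Cpt1a (ENSMUSG00000024900, chr19:3322334-3385733, plus strand) encodes the carnitine palmitoyltransferase of the outer mitochondrial membrane, the rate-limiting step of fatty acid entry. It was even across ACSA-2 libraries, at 46.9, 55.6 and 54.1 CPM with GFP and at 53.7, 43.3 and 55.8 CPM with A2A (log2 fold change -0.03, SE 0.20, edgeR adjusted p = 0.982). Across CD11b libraries it spread widely, at 142, 86.4 and 37.7 CPM with GFP and at 49.5, 88.6 and 311 CPM with A2A. The highest level was in the library A2A-2347, which is choroid plexus-rich, and the vector groups overlapped (log2 fold change 0.70, SE 0.77, edgeR adjusted p = 0.676). Without that library the value was -0.38, and in the choroid plexus-rich libraries alone it was 1.40 (adjusted p = 0.0498), a fit in which library A2A-2347 stands alone for A2A.

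Acadl (ENSMUSG00000026003, chr1:66830839-66863277, minus strand), the long-chain acyl-CoA dehydrogenase of the opening step of beta-oxidation, was at 259, 324 and 326 CPM with GFP and at 322, 291 and 443 CPM with A2A in ACSA-2 libraries. It was at 214, 164 and 86.2 CPM with GFP and at 85.4, 60.1 and 123 CPM with A2A in CD11b libraries. The vector groups overlapped in both fractions, and the log2 fold changes were 0.22 (SE 0.20) and -0.84 (SE 0.44), with edgeR adjusted p of 0.760 and 0.391. In GFP mice Acadl was higher in ACSA-2 than in CD11b libraries without overlap, 2.01-fold, but edgeR did not call it (adjusted p = 0.0747). DESeq2 called that difference between fractions (adjusted p = 0.0402), and so did edgeR without CD11b library GFP-2331 (adjusted p = 0.0323).

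Hadha (ENSMUSG00000025745, chr5:30118304-30155162, minus strand) encodes the alpha subunit of the mitochondrial trifunctional protein, which carries out the middle steps of the cycle. It was at 76.2, 50.3 and 77.9 CPM with GFP and at 49.4, 41.7 and 64.9 CPM with A2A in ACSA-2 libraries. Its CD11b levels were 85.7, 61.9 and 50.4 CPM with GFP and 57.6, 90.2 and 176 CPM with A2A. The group means moved in opposite directions, with log2 fold changes of -0.38 (SE 0.25) and 0.66 (SE 0.46), and the groups overlapped in both fractions. Neither was called, with edgeR adjusted p of 0.609 and 0.499. As with Cpt1a, the highest library was library A2A-2347. Among the choroid plexus-rich libraries, 85.7 and 61.9 CPM with GFP stood against 176 CPM with A2A, and among the poor ones 50.4 CPM against 57.6 and 90.2 CPM. Hadha shares 75 exon bases, 0.859% of its exons, with Garem2 on the opposite strand, and the reads carry no strand.

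Acaa2 (ENSMUSG00000036880, chr18:74779197-74806208, plus strand), the mitochondrial 3-ketoacyl-CoA thiolase that closes the cycle, was at 303, 338 and 314 CPM with GFP and at 377, 365 and 499 CPM with A2A in ACSA-2 libraries. All A2A libraries were above all GFP libraries, by 1.30-fold in the fit (log2 0.38, SE 0.18), but the gene was not called (edgeR adjusted p = 0.407). In CD11b libraries Acaa2 split by choroid plexus markers: 608, 437 and 399 CPM in the rich libraries GFP-2328, GFP-2329 and A2A-2347 against 89.5, 67.9 and 44.0 CPM in the poor libraries GFP-2331, A2A-2343 and A2A-2344. The vector contrast over both kinds together had a log2 fold change of -1.21 (SE 1.01, edgeR adjusted p = 0.582).

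Pdk4 (ENSMUSG00000019577, chr6:5483351-5496309, minus strand) encodes a kinase that shuts off the pyruvate dehydrogenase complex and so spares glucose when fatty acids are burnt. In ACSA-2 libraries it was at 32.2, 27.7 and 53.7 CPM with GFP and at 25.7, 13.8 and 39.9 CPM with A2A, overlapping groups (log2 fold change -0.51, SE 0.39, edgeR adjusted p = 0.697). In CD11b libraries it was at 57.1, 30.0 and 43.8 CPM in the choroid plexus-rich libraries and at 0.401, 2.46 and 4.62 CPM in the poor ones. The lowest value, in library GFP-2331, rests on 16 reads (95% exact Poisson interval 0.229 to 0.651 CPM). The vector contrast of -0.84 (SE 1.57) became 3.11 among the poor libraries alone and 1.61 with the choroid plexus markers as a covariate, none of them called by edgeR (adjusted p = 0.814, 1.000 and 0.466).

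Plin2 (ENSMUSG00000028494, chr4:86648386-86670060, minus strand), a protein that coats lipid droplets, had the smallest log2 fold changes of the 10 genes in both fractions. It was at 65.6, 82.7 and 80.6 CPM with GFP and at 65.8, 70.1 and 92.3 CPM with A2A in ACSA-2 libraries. In CD11b libraries it was at 51.6, 57.1 and 91.1 CPM with GFP and at 89.0, 57.4 and 57.4 CPM with A2A. The log2 fold changes were 0.00 (SE 0.20) and -0.01 (SE 0.34), with edgeR adjusted p of 0.999 and 0.993.

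Within the CD11b fraction, Ppara, Pdk4, Acaa2 and Acadl were higher in every choroid plexus-rich library than in every poor one. Their means in the 3 rich libraries were 21.1-, 17.5-, 7.16- and 2.17-fold those in the 3 poor ones. Acaa2 and Acadl were also lower with A2A within each kind. Acaa2 was at 608 and 437 against 399 CPM in the rich and 89.5 against 67.9 and 44.0 CPM in the poor libraries. Acadl was at 214 and 164 against 123 CPM and at 86.2 against 85.4 and 60.1 CPM. For Ppara and Pdk4, A2A lay between the GFP libraries in the rich kind and above GFP in the poor kind. Plin2 was lower in the rich libraries, at 51.6 to 57.38 CPM against 57.43 to 91.1 CPM. Angptl4, Ppard, Cpt1a, Hadha and Fabp7 overlapped between rich and poor libraries. These 2 kinds of library were set apart from the data and hold 2 GFP and 1 A2A or 1 GFP and 2 A2A libraries, so no test was made between them. The share of all genes that separate the 2 kinds was not computed. The split is therefore not shown to be particular to these genes.

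**Figure D3:**
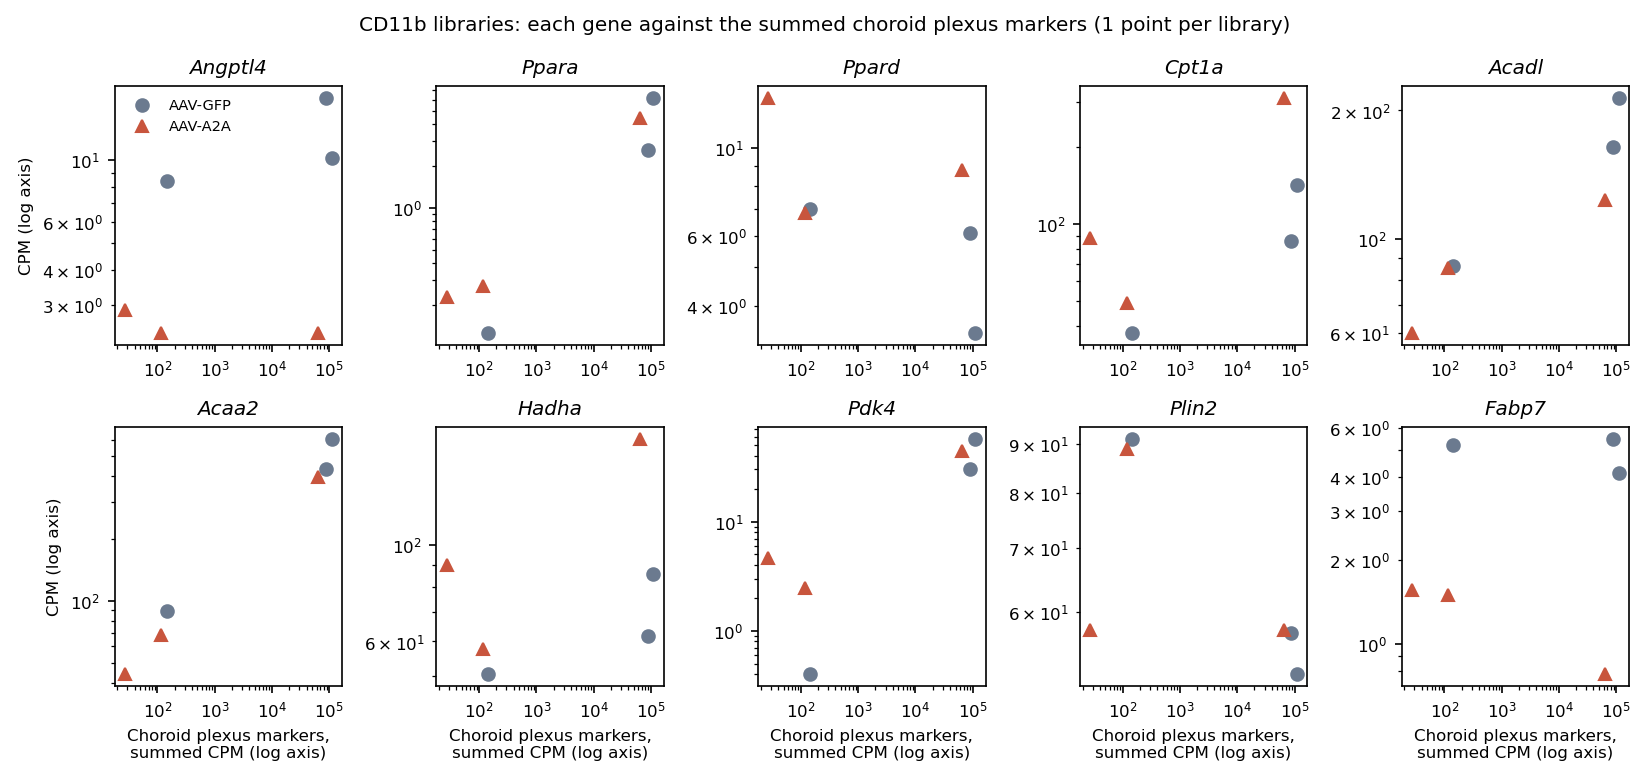
For the 6 CD11b libraries, each panel plots the CPM of 1 gene against the summed CPM of 9 choroid plexus markers, both on log axes, with circles for AAV-GFP and triangles for AAV-A2A. Ppara, Pdk4, Acaa2 and Acadl are higher in the 3 marker-rich libraries, whereas for Angptl4 and Fabp7 the A2A triangles lie below the GFP circles on both sides.

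Between genes, levels were compared as RPKM, the CPM divided by the kilobases of annotated exon. In GFP ACSA-2 libraries the order of the mean RPKM was Fabp7 at 362, Acaa2 at 210, Acadl at 158, Plin2 at 40.4, Angptl4 at 19.4, Hadha at 17.0, Cpt1a at 12.1, Pdk4 at 10.9, Ppara at 1.47 and Ppard at 1.40. Libraries of neighbouring genes overlapped between Angptl4 and Hadha, Hadha and Cpt1a, Cpt1a and Pdk4, and Ppara and Ppard. The order of these neighbours is therefore given by their means only, and no test between genes was made. With A2A the mean RPKM of Angptl4 in ACSA-2 libraries was 34.2, above every library of Hadha and overlapping Plin2 at 40.3. In GFP CD11b libraries Acaa2 led at 249 RPKM, while Fabp7 and Angptl4 stood seventh and eighth at 3.95 and 3.58. In A2A CD11b libraries Angptl4 stood ninth, at 0.768 RPKM, and its libraries overlapped those of Fabp7 at 1.03 and Ppara at 0.465.

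**Figure D4:**
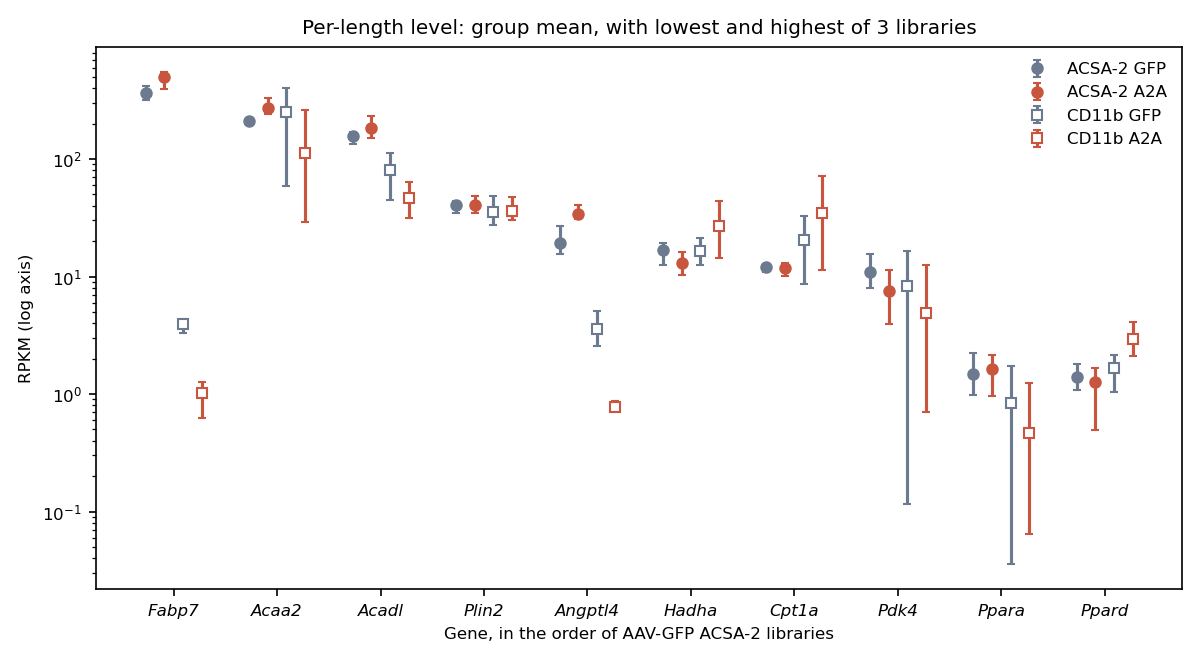
RPKM on a log axis for each gene, as the group mean with the lowest and highest of 3 libraries, ordered by the GFP ACSA-2 mean. Angptl4 covers the range from 0.768 RPKM in A2A CD11b libraries to 34.2 RPKM in A2A ACSA-2 libraries, and Plin2 stays between 35.3 and 40.4 RPKM in all 4 groups.

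The wider pathway was read from 12 lists of PPAR cofactors and targets, lipases, fatty acid uptake, carnitine shuttle, mitochondrial and peroxisomal beta-oxidation, ketone bodies, pyruvate dehydrogenase, lipid droplets and genes induced by hypoxia or glucocorticoids, 186 genes without Angptl4. In ACSA-2 libraries 166 were tested, of which 1 was called higher with A2A and 7 lower, against 29 higher and 524 lower among all 16451 genes. Their median log2 fold change was -0.02 beside 0.02 for all genes. In CD11b libraries 0 of 172 were called by edgeR, with a median of -0.16 beside -0.05 for all genes. DESeq2 called 7 of these genes in CD11b libraries, where it called 502 of all genes.

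Mitochondrial beta-oxidation, the core of the list, held 21 tested genes. None was called in ACSA-2 libraries, where 14 of 21 had a positive log2 fold change with a median of 0.13 beside 0.02 for all genes. None was called in CD11b libraries, where 7 of 21 were positive with a median of -0.40 beside -0.05. Within the choroid plexus-rich libraries 7 were positive, with a median of -0.23 beside -0.10 for all genes, and within the poor ones 8, with a median of -0.11 beside 0.037. Between the fractions of GFP mice 7 of the 21 were called, all of them higher in ACSA-2 libraries, against 25.8% of all genes called in either direction. The list of 29 PPAR targets, which takes in several of the genes above, gave 21 tested genes in ACSA-2 and 22 in CD11b libraries with none called, and medians of -0.03 and -0.20. The carnitine shuttle had medians of -0.03 and 0.03, and peroxisomal beta-oxidation of 0.02 and 0.23. In the rich and poor CD11b libraries the medians were -0.0082 and -0.16 for PPAR targets, 0.52 and 0.21 for the carnitine shuttle and 0.40 and -0.028 for peroxisomal beta-oxidation.

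None of the 8 called genes of the ACSA-2 comparison was an enzyme of mitochondrial beta-oxidation, and 6 of them are described here. Prkaa1, the catalytic alpha-1 subunit of AMP-activated kinase, which relieves the block on carnitine shuttling, fell from 83.5 ± 14.2 to 19.4 ± 8.71 CPM (SD, n = 3 each, log2 fold change -2.10, edgeR adjusted p = 0.00643). Among PPAR cofactors, the coactivator Ncoa2 fell from 43.2 ± 12.9 to 12.7 ± 3.22 CPM (-1.76, edgeR adjusted p = 0.0151). The corepressor Ncor1 rose from 76.7 ± 4.05 to 148 ± 11.7 CPM (0.95, edgeR adjusted p = 0.0114). Of genes that, like Angptl4, respond to glucocorticoids, Errfi1, an inhibitor of the EGF receptor, fell by 2.54 and the clock gene Per1 by 1.78 on the log2 scale (edgeR adjusted p = 0.00505 and 0.0110). The hypoxia-induced glycolytic activator Pfkfb3 fell by 1.33 on the log2 scale (edgeR adjusted p = 0.0117). Errfi1 and Per1 were the 2 called of 16 tested glucocorticoid-induced genes, of which 6 had a positive log2 fold change (list median -0.40). Pfkfb3 was the 1 called of 18 hypoxia-induced genes, of which 5 were positive (list median -0.29). Of these 18, 3 stood higher and 4 lower with A2A without overlap. Each of the 6 described genes stood without overlap between the vectors in ACSA-2 libraries. Of the 6 fits that each left out 1 library, 4 lost the call of Ncoa2 (without 306, 307, 310 or 313), 3 each those of Ncor1 (306, 307, 310) and Pfkfb3 (303, 306, 310) and 1 that of Per1 (306). Prkaa1 and Errfi1 were called in all 6. The joint fit of all 12 libraries also ended the calls of Ncor1 (edgeR adjusted p = 0.0742) and Pfkfb3 (edgeR adjusted p = 0.377).

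In CD11b libraries, 9 of the 17 PPAR receptor and cofactor genes stood without overlap between vectors, 8 higher and 1 lower with A2A, where 23.4% of all genes did. None of them was called by edgeR, and the median log2 fold change of the list was 0.88 beside -0.05 for all genes. In the choroid plexus-rich libraries 14 of the 17 were positive, with a median of 1.09 beside -0.10 for all genes. In the poor ones 15 were positive, with a median of 0.60 beside 0.037. Library A2A-2347 stands alone for A2A in the rich kind, and library GFP-2331 for GFP in the poor kind. In ACSA-2 libraries the same list had a median of -0.35 beside 0.02. Ncoa2 was at 42.1 ± 1.83 CPM with GFP and 68.7 ± 18.9 CPM with A2A in CD11b libraries (SD, n = 3 each), with log2 fold changes of 1.09 (SE 0.31) in the rich and 0.36 (SE 0.70) in the poor libraries. Its A2A effect differed between the fractions by -2.46 on the log2 scale, taken as ACSA-2 less CD11b (edgeR adjusted p = 0.0438), the only listed gene so called. That call was lost under the RLE scaling of DESeq2 in edgeR (adjusted p = 0.0505), under upper-quartile scaling (adjusted p = 0.0671), without choroid plexus-rich libraries (adjusted p = 0.268) and in 10 of the 12 fits that each left out 1 library.

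**Figure D5:**
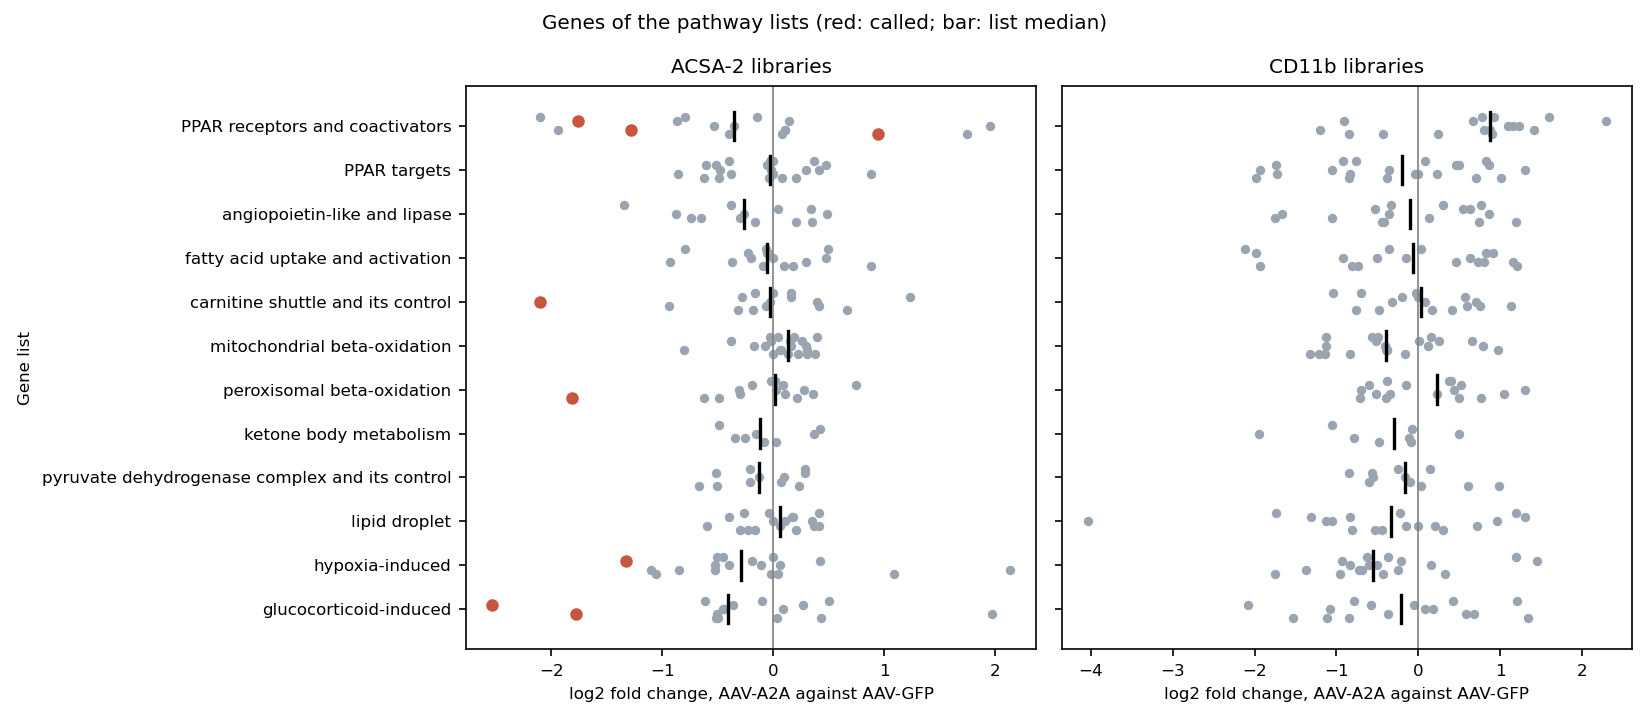
Each point is a tested gene of 1 of 12 lists, placed by its log2 fold change of AAV-A2A against AAV-GFP in ACSA-2 (left) and CD11b (right) libraries; red points passed the call rule and the bar is the list median. The 8 red points are all in ACSA-2 libraries, 1 right and 7 left of 0, and no CD11b point is red.

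The genes whose pattern was most like that of Angptl4 were sought among 9582 genes with a mean of at least 5 CPM in each fraction, by Pearson correlation of log2 CPM centred within each fraction over the 12 libraries. These libraries share normalization within a fraction and, in CD11b, the choroid plexus split, and the points fall into groups by vector, so the coefficients are a description. Among the 5 highest were Cavin3, a caveolar coat protein (r = 0.955), Ndufb4, a subunit of respiratory complex I (r = 0.932), Rgcc, a regulator of cell cycle (r = 0.918), and Chchd1, a mitochondrial ribosomal protein (r = 0.918). Cavin3 went from 283 ± 34.8 CPM with GFP to 415 ± 13.5 CPM with A2A in ACSA-2 libraries and from 32.4 ± 12.3 to 10.04 ± 1.39 CPM in CD11b libraries (SD, n = 3 each), where the log2 fold change was -1.90 in the rich and -1.07 in the poor libraries. The enzymes stood much further down the list, the nearest being Acadl at rank 1309 (r = 0.58) and Acaa2 at rank 1705 (r = 0.51). Fabp7, Ppara and Ppard did not reach a mean of 5 CPM in each fraction and were not compared.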

How the data were processed

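RNA-seq counts of 6 ACSA-2 and 6 CD11b hippocampal libraries were analysed. According to the labels and the study's methods, the authors amplified full-length cDNA from polyadenylated RNA (SMART-Seq v4), tagmented it (Nextera XT), trimmed reads with cutadapt 1.10, aligned them to mm10 with STAR 2.5.3 and counted them per Ensembl gene with HTSeq 0.6.1p1. The deposited values are raw counts per gene, without molecular identifiers or strand, in 1 table per fraction. PCR copies are therefore counted as reads, and intervals cover counting error only. Library totals of 33937067 to 53206974 reads set the counting precision. Gene names, positions and exon lengths came from GENCODE on GRCm38.

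Here each fraction was fitted by the quasi-likelihood test of edgeR 4.0.16 (R 4.3.3) after TMM scaling and filterByExpr, with Benjamini-Hochberg adjustment over all tested genes. Genes present in both tables were fitted over all 12 libraries for the difference between fractions, and over the 6 AAV-GFP libraries for the fractions themselves. A call required an adjusted p under 0.05 and an absolute log2 fold change over 0.32. The SE of an edgeR log2 fold change is its absolute value divided by the square root of the F statistic of that test. For Angptl4, chosen on these contrasts, the SE is not to be read as a test. CPM used TMM library sizes of the fraction, and levels across the 2 tables are set side by side with that limit. DESeq2 1.42.0, limma-voom (limma 3.58.1), other scalings and filters and single omitted libraries were alternatives. Fits on the choroid plexus-rich or choroid plexus-poor libraries, or with these markers as covariate, were added after the data had been seen. Functions were run on simulated counts that had a smaller spread between libraries than these data and no choroid plexus split. That run checks the code and not the power of these comparisons.

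The 10 genes and all lists were chosen with earlier results of these data known. Named in addition were list genes called in a vector comparison with a mean of at least 1 CPM (at most 6 per list), the leading gene of a marker list shown beside a result, and the 5 genes most like Angptl4. Of the genes that this rule names, 3 are not reported here.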

Additional observations from a re-analysis of the deposited data

Results flagged for a closer look

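Among the 10 genes and the listed genes named for a call, 3 stood without overlap between vectors in opposite directions in the 2 fractions. Of all 163 listed genes tested in both fractions, 8 stood so, 4.91% beside 3.73% of all 14961 genes. Angptl4 was higher with A2A in all ACSA-2 libraries and lower in all CD11b libraries, with a difference of 3.01 on the log2 scale that was not tested, since the gene was chosen on it. Ncoa2 was lower in ACSA-2 libraries and higher in CD11b libraries, with a difference of -2.46 that the interaction test of edgeR called (adjusted p = 0.0438). Ncor1 was higher with A2A in all ACSA-2 libraries and lower in all CD11b libraries, where it was at 139 ± 17.3 CPM with GFP and 106 ± 4.22 CPM with A2A (SD, n = 3 each), with log2 fold changes of -0.36 in the choroid plexus-rich and -0.59 in the poor libraries. Its difference of 1.33 on the log2 scale drew attention by direction alone, and the interaction test of edgeR did not call it (adjusted p = 0.0625). That difference was called by DESeq2 (adjusted p = 4.07e-05), under the filter that keeps genes with 10 or more counts throughout (adjusted p = 0.0399), without GFP-2331 (adjusted p = 0.0364) and without A2A-2343 (adjusted p = 0.0285). The test for a single library far from its group needs at least 4 libraries a group and was not applied to these groups of 3.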

How the results depend on the processing

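In every alternative fit Angptl4 stayed higher with A2A in ACSA-2 and lower in CD11b libraries. Leaving out each library in turn, its log2 fold change ranged from 0.69 to 1.11 in ACSA-2 libraries and from -2.45 to -1.92 in CD11b libraries, and it was -1.70 in the choroid plexus-poor libraries alone, where the difference between fractions was 2.48. Upper-quartile scaling moved the median log2 fold change of all genes by -0.16 in CD11b libraries and by 0.30 for the difference between fractions.

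The numbers of calls moved with the setting. In ACSA-2 libraries 553 genes and 8 listed genes were called, but 1277 and 14 with DESeq2, 156 and 4 in the joint fit of all 12 libraries, and 272 to 448 and 2 to 9 when single libraries were left out. In CD11b libraries DESeq2 called 502 genes, 1 of the 9 tested members and 7 listed genes, the choroid plexus-poor libraries gave 3 genes and the rich ones 2224 genes, 2 members (Cpt1a and Fabp7) and 33 listed genes. The difference between fractions was called for 75 genes and 1 listed gene. It was called for 10 and 0 with RLE scaling, 0 and 0 with upper-quartile scaling, 345 genes, 1 member and 9 listed genes with at least 10 counts in every library, 1740 genes, 1 member and 16 listed genes with DESeq2, and 3 listed genes with limma-voom. Without choroid plexus-rich libraries it was 0 and 0, and without single libraries 0 to 1286 genes, 0 to 1 member and 0 to 23 listed genes, the most without GFP-2331. Between the fractions of GFP mice 4377 genes, 1 member and 57 listed genes were called, against 6834 genes and 2 members with DESeq2, 2 members in the joint fit, 5 members without choroid plexus-rich libraries, and 1927 to 5836 genes, 1 to 4 members and 27 to 83 listed genes without single libraries. The cause was not tested.

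Among the member values that changed sign, 1 was called (Acaa2, below). In ACSA-2 libraries Cpt1a was 0.069 under upper-quartile scaling and Plin2 -0.0044 without a filter and -0.028 in the joint fit. In CD11b libraries Plin2 was 0.029 without a filter, 0.0030 with limma-voom, 0.018 in the joint fit and 0.026 in the choroid plexus-rich libraries. Ppara and Pdk4 were 0.96 and 3.11 in the poor libraries and 0.79 and 1.61 with the markers as covariate. For the difference between fractions Plin2 was 0.036 with RLE, 0.24 with upper-quartile scaling, 0.021 with at least 10 counts and 0.024 with DESeq2, and Pdk4 was -0.47 with limma-voom. Without choroid plexus-rich libraries that difference was -0.88 for Ppara, -3.68 for Pdk4 and 0.28 for Plin2. Between the fractions of GFP mice Acaa2 was 0.17 with limma-voom, and without choroid plexus-rich libraries Cpt1a was 0.41, Acaa2 1.77 (called, adjusted p = 0.00325) and Plin2 -0.32. That fit, which also called Fabp7, Acadl, Ppara (5.28, adjusted p = 0.0244) and Pdk4 (6.49, adjusted p = 0.00255), has the single CD11b library GFP-2331, assumed to vary like the others. Without GFP-2331 Cpt1a (-1.07, adjusted p = 0.0156) and Acaa2 (-0.66, adjusted p = 0.0380) were called there, and Cpt1a in the choroid plexus-rich CD11b libraries (1.40, adjusted p = 0.0498). Leaving out single libraries gave in ACSA-2 libraries -0.12 to 0.075 for Cpt1a, -0.17 to 0.095 for Plin2, -0.12 to 0.56 for Ppara and -0.40 to 0.23 for Ppard. In CD11b libraries it gave -0.38 to 1.23 for Cpt1a, -3.06 to 0.11 for Pdk4, -0.26 to 0.28 for Plin2 and -3.57 to 0.23 for Ppara. For the difference between fractions it gave -1.24 to 0.22 for Cpt1a, -0.60 to 2.41 for Pdk4, -0.38 to 0.24 for Plin2 and -0.056 to 3.57 for Ppara. Between the fractions of GFP mice it gave -0.66 to 0.29 for Acaa2, -0.13 to 0.28 for Hadha, -0.15 to 1.35 for Pdk4 and -0.51 to 0.0018 for Ppard. No paired analysis was possible because the groups share no replicate numbers. With 3 libraries a group, effects of the size seen for most members were not resolved at the spread of the CD11b libraries, and Ppara and Pdk4 rest on 5 to 16 reads in some of them.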
